A study of Strongylocentrotus purpuratus with 5 samples.

Results

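Stretches of open chromatin that formed a single region in *S. purpuratus* embryos at 20 h, but lay apart as several regions at 12 h, are described here. Members were chosen by the bounds of both region lists: a 20 h region was a joined region when it overlapped at least 2 of the 12 h regions by 1 bp or more. Of 258515 regions at 20 h, 3910 met this rule, or 1.51%. Because the bounds at both stages made the choice, the counts, lengths and gap widths given below carry no test.

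ATAC-seq served as the assay: a transposase enters DNA that is not wrapped or blocked and tags the ends it makes for sequencing. Whole embryos, named hatching blastulae at both stages and reared at 15 °C were sampled at 12 h, as 2 libraries of 2 biological replicates, and at 20 h, as 3 libraries of 2 biological replicates. Replicate 1 at 20 h consisted of technical replicates 1 and 2, whose nuclei were isolated by a different published procedure, whereas the single library of replicate 2 and both 12 h libraries came from density gradient nuclei, so that replicate and preparation cannot be told apart at 20 h. Each stage has 1 list of regions from its pooled libraries, and only the 20 h libraries also have peak lists of their own here, with 160654 to 300000 peaks each. By the account of the study, the 12 h stage was sequenced more deeply and different embryo batches were used, so that stage, depth and batch cannot be told apart. Among the 20 h libraries, its quality reports list the fewest reads after filtering for replicate 2 and the most for technical replicate 2. They also list by far the highest share of duplicate reads for technical replicate 2 and the highest share of mitochondrial reads for replicate 2. Only technical replicate 1 was sequenced from both fragment ends. Whole embryos mix cells of all territories.

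In open chromatin, active promoters and enhancers appear as stretches without nucleosomes, where transcription factors and the transcription machinery hold the DNA accessible. A longer element often holds several accessible centres with a nucleosome or a protected stretch between them. A peak caller writes such an element as separate peaks when the signal between the centres falls under its threshold and as a single broad peak when it does not. In a peak list the summit is the base of the highest signal, and a peak with several centres is listed with a summit for each.

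Most joined regions merged a pair of neighbours. Of the 3910, 3821 overlapped 2 regions at 12 h (97.7%), 88 overlapped 3 and 1 overlapped 4. Between them they took in 7885 different 12 h regions, 3.30% of that list, and filled 4000 gaps. In 2690 joined regions (68.8%) the 12 h regions touched no other 20 h region, and in the rest at least 1 of them also reached into a neighbouring 20 h region. The joined regions lay on 1777 scaffolds, at most 17 of them on any scaffold (scaffold 30, among 529 regions at 20 h).

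The reverse case was more common. Of 238838 regions at 12 h, 14088 overlapped at least 2 regions at 20 h (5.90%). The 12 h list also held longer regions, with a median of 325 bp against 252 bp at 20 h. More regions were thus continuous at 12 h and divided at 20 h than the other way round.

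Joined regions were long. Their median length was 693 bp (middle 50% from 493 to 932 bp, range 150 to 4027 bp), against 287 bp for 20 h regions overlapping a single 12 h region and 204 bp for those overlapping none. Regions that took in 3 of the 12 h regions had a median of 1198 bp. The joined share rose with length by construction, from 0.0419% of 20 h regions under 200 bp to 21.9% of those of 1000 bp and over. Among the 1000 longest regions at 20 h, 274 were joined.

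The joins mostly linked what was there before rather than widening it. Of the joined length, 75.7% lay over 12 h regions, 19.3% in the former gaps and 5.02% beyond the outer 12 h bounds. At both ends 2261 joined regions (57.8%) stayed within the outer bounds of their 12 h regions, 1348 passed them at 1 end and 301 at both. The joined region was as a median 0.780 times as long as the 12 h stretch it crossed, gaps included, and 53.6% of joined regions held none of their 12 h regions whole. The 12 h regions that were linked resembled the rest of the 12 h list in length, with medians of 367 bp and 325 bp.

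Some members met the rule barely. The weakest overlap of a joined region with a 12 h region had a median of 162 bp, but was 10 bp or less in 155 of them (3.96%) and 1 bp in 17. On scaffold 1, bases 533200 to 533781, the joined region shared 1 bp with the 12 h region to its left and 330 bp with that to its right. The joined region on scaffold 1361, bases 73267 to 73955, likewise held 1 bp of its right neighbour. Just outside the rule were 136 regions at 20 h that overlapped a single 12 h region and ended within 10 bp of another, such as scaffold 115, bases 412916 to 413399, and scaffold 1256, bases 415692 to 416012, which each touched a further 12 h region without sharing a base.

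The filled gaps were narrow. Their median width was 114 bp (middle 50% from 82 to 166 bp, range 59 to 1463 bp). Of the 4000, 2769 were under 150 bp (69.2%) and 253 were 300 bp or wider (6.33%). The narrowest gap between any neighbours in the 12 h list was also 59 bp, and the shortest region in either list was 150 bp, so that most filled gaps were narrower than the shortest region that could have been called inside them. The centres of the 12 h regions beside a filled gap lay 545 bp apart as a median.

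Filling depended on the width of the gap. Over all 12 h gaps up to the widest filled one, 3.26% were filled at 20 h. The share was 27.6% of gaps under 75 bp, 20.9% from 75 to under 100 bp, 14.8% from 100 to under 150 bp, 7.85% from 150 to under 200 bp and 0.0505% at 500 bp and over. Gaps in the 20 h list were spanned by a 12 h region more often in each of these width classes, at 49.6% under 75 bp and 34.9% from 100 to under 150 bp. The plot of gaps by width shows both shares falling with width and the 12 h list covering more 20 h gaps than the reverse throughout.

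**Figure D1:**
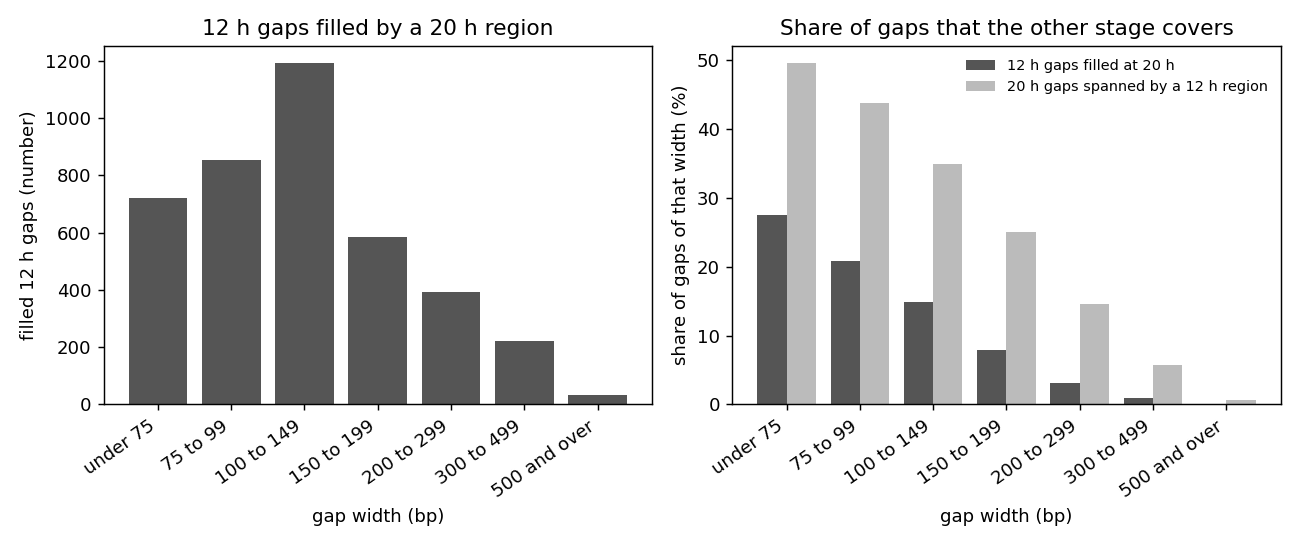
Left, number of 12 h gaps filled by a 20 h region, by gap width in bp. Right, share in percent of all 12 h gaps of that width filled at 20 h (dark bars) and of all 20 h gaps spanned by a 12 h region (pale bars). Filled gaps were most numerous from 100 to under 150 bp, 1193 of 4000, and the pale bar is the higher in every class.

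The next question was whether a filled gap had a summit of its own at 20 h. Spread of signal from its sides was not measured. A summit of at least 1 library lay inside 1452 of the 4000 filled gaps, or 36.3% (95% Wilson interval 34.8 to 37.8, counting error only). Technical replicate 1 had a summit in 20.0% of the filled gaps, technical replicate 2 in 14.9% and replicate 2 in 9.45%. Both biological replicates had a summit in 148 filled gaps (3.70%, 3.16 to 4.33), and all 3 libraries had it in 33. The majority of filled gaps thus held no summit of any library. Without technical replicate 1 the shares were 22.3% and 2.00%, and with peaks of a −log10 p of 3 or more they were 23.3% and 1.43%.

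For comparison, 30.2% of all 12 h gaps up to the widest filled one held a summit of some 20 h library and 4.64% held one in both biological replicates, but most of these gaps were far wider. Weighted to the widths of the filled gaps, unfilled gaps held a summit of some library in 7.49% of cases and of both biological replicates in 0.273%. Filled gaps stood at 36.3% and 3.70%. The pooled 20 h list that decides which gaps are filled was made from the same libraries, so these differences were built into the choice and were not tested.

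The share of filled gaps with a summit rose with their width. A wider gap has more bases in which a summit can fall, and these shares were not compared per base. Of filled gaps under 75 bp, 13.1% held a summit of some library and 3 of 723 held one in both biological replicates. From 150 to under 200 bp the shares were 52.0% and 4.44%, and from 300 to under 500 bp they were 85.0% and 20.9%. All but 1 of the 33 gaps of 500 bp and over held a summit of some library, and 9 held one in both replicates.

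Per base, the former gaps still held fewer summits than the stretches that were accessible at 12 h. In technical replicate 1 there were 1.45 summits per kb of gap and 2.17 per kb of 12 h region within the joined regions. In technical replicate 2 the values were 1.07 and 2.53, and in replicate 2 they were 0.678 and 1.59. The gap was therefore sparser than the 12 h stretches in each of the 3 libraries, by a factor that differed between them. The summit profile around the gap centre shows the same dip in all libraries. Stretches of the joined regions beyond the outer 12 h bounds held fewer summits still. They had 1.203 and 1.032 per kb in technical replicates 1 and 2 and 0.458 in replicate 2. A low density was thus not particular to the gaps.

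**Figure D2:**
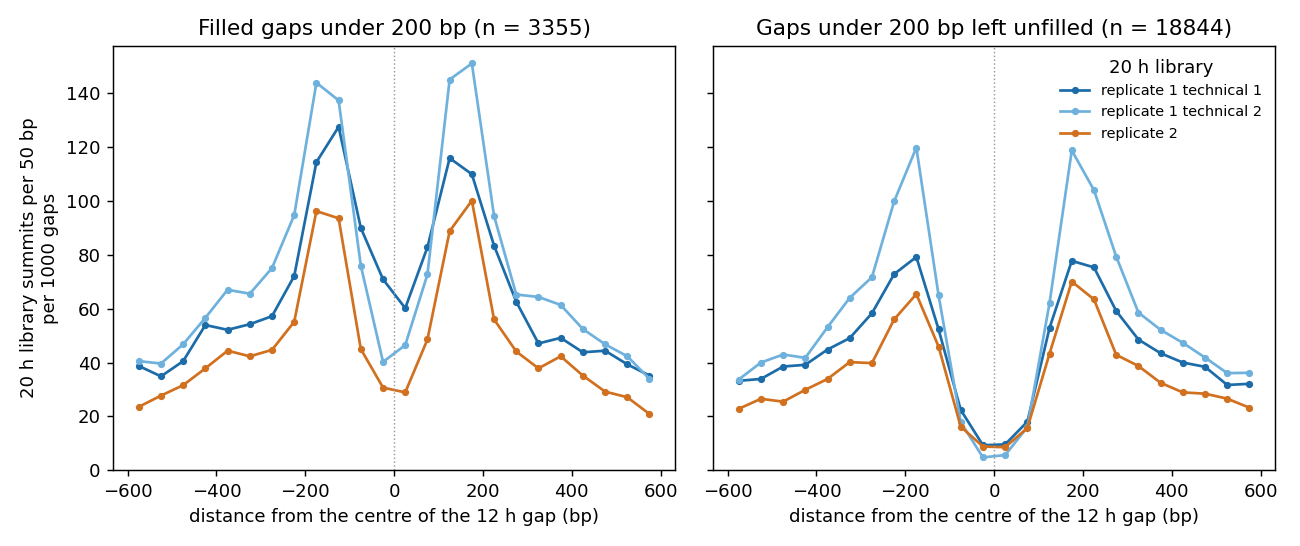
Summits of each 20 h library per 50 bp and per 1000 gaps, against distance in bp from the centre of the 12 h gap, for 3355 filled (left) and 18844 unfilled (right) gaps under 200 bp. In filled gaps the bins beside the centre reach 60.2 to 70.9 in technical replicate 1, 40.2 to 46.5 in technical replicate 2 and 28.9 to 30.7 in replicate 2, below the shoulders on either side, whereas in unfilled gaps they stay between 4.78 and 9.61.

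Gap summits often had no summit of the same library over the 12 h parts beside them, and otherwise were mostly weaker than the flanks. No summit over a 12 h part was found in 427 joined regions with a gap summit of technical replicate 1, in 286 of 592 with that of technical replicate 2 and in 221 of 378 with that of replicate 2. Where a joined region had a summit of the same library both in the gap and over a 12 h part, the gap summit had the higher fold enrichment in 117 of 372 regions (technical replicate 1), 69 of 306 (technical replicate 2) and 30 of 157 (replicate 2), and an equal one in 26, 11 and 9. Fold enrichment is the signal of a peak over its local background as MACS2 gives it. The median ratio of gap to flank was 0.861, 0.804 and 0.750 in the same order.

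The 33 gaps with a summit of all 3 libraries were wide, with a median of 306 bp, and lay in regions with a median length of 1035 bp. In 10 of them the 3 summits fell within 50 bp of each other. Over the 148 gaps with summits in both biological replicates, the nearest summits of the replicates lay 39.5 bp apart as a median, in gaps with a median width of 236 bp.

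The region on scaffold 1581, bases 120108 to 120992, held a centre at nearly the same base of the former gap in all 3 libraries. At 12 h it was covered by regions of 275 bp and 367 bp with 344 bp between them, from 120326 to 120669. At 20 h the gap held summits at 120506 and 120494 in the technical replicates and at 120497 in replicate 2, with fold enrichments between 4.13 and 5.13. On either side, summits lay at 120222 and 120808 in replicate 2 and at 120222 and 120800 in technical replicate 2. Each library covered the gap with a single region. The fold enrichment at the best peak was 9.20 and 5.63 in technical replicates 1 and 2 and 7.22 in replicate 2. With the technical replicates averaged first, the mean was 7.32 ± 0.140 (SD, n = 2 biological replicates). That SD leaves out the difference between the technical replicates.

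Scaffold 428, bases 149679 to 150867, was the best ranked region of this kind by −log10 p over the 3 libraries. Its gap of 286 bp held summits at 150141, 150106 and 150093 with fold enrichments of 4.21, 4.74 and 4.02. The strongest summit lay over the right 12 h region, at 9.35, 7.38 and 11.6, so that the centre in the gap was the weaker one in each library. Each library bridged the gap here as well.

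On scaffold 38, bases 468689 to 469541, the summits in the 306 bp gap lay at 469223, 469230 and 469207, with fold enrichments of 3.36, 2.59 and 3.19. They exceeded those over the short 12 h region to the right, at 2.21, 2.14 and 2.94, and fell below those over the left one, at 4.34, 4.12 and 6.17. Technical replicate 2 had a summit in this gap without bridging it.

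Scaffold 478, bases 272464 to 273333, had the widest gap of the best ranked regions, 373 bp between 12 h regions of 282 bp and 260 bp. Replicate 2 had its gap summit at 272864 with a fold enrichment of 6.16, close to the 6.88 and 7.05 on the sides. In technical replicate 1 the gap held 2 summits, the stronger at 3.37, and in technical replicate 2 it held 1 at 3.59. The remaining 4 of the 8 best ranked, on scaffolds 249, 127, 56 and 592, had gaps of 177 to 309 bp and mean fold enrichments from 6.28 to 8.60. Replicate 2 bridged the gap on 3 of these 4 scaffolds, and all 3 libraries bridged it on scaffold 592 alone.

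**Figure D3:**
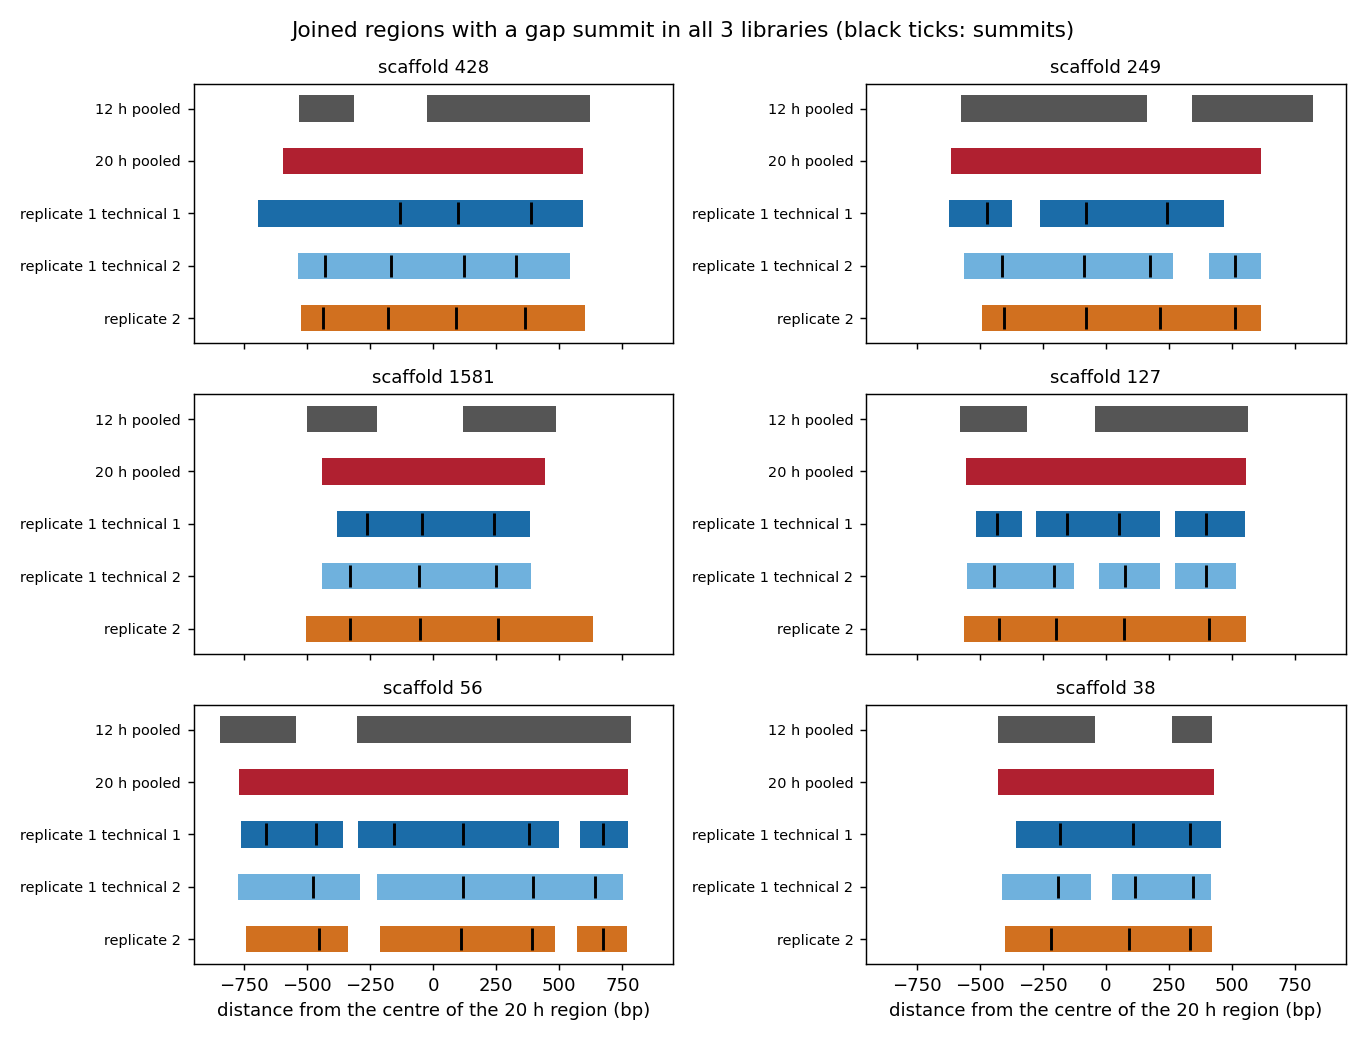
Maps of 6 of the 8 best ranked joined regions with a gap summit in all 3 libraries, in bp from the centre of the 20 h region: pooled 12 h regions (grey), pooled 20 h region (red) and regions of each 20 h library (blue and orange) with their summits as black ticks. On scaffold 1581 the middle ticks of the 3 libraries line up within the grey gap, at 120494 to 120506.

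The widest filled gaps with a summit in both replicates were not continuous in any separate library. On scaffold 1068, bases 178576 to 180739, the gap of 1463 bp held 2 summits of technical replicate 1, 3 of technical replicate 2 and 2 of replicate 2, and 4, 4 and 3 separate library regions lay under the joined region. No library bridged this gap. The same was true of the gaps of 916 bp on scaffold 603 (bases 32506 to 34022), 768 bp on scaffold 368 (413543 to 414822), 763 bp on scaffold 467 (99242 to 100682) and 724 bp on scaffold 191 (260204 to 261510). Mean fold enrichments were lowest on scaffold 368, at 3.48, and 4.32 and 4.33 on scaffolds 1068 and 191. On scaffolds 467 and 191, technical replicate 2 had no summit in the gap.

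The 5 widest filled gaps without any summit measured 447 to 600 bp, and their joined regions had no peak of replicate 2. They lay on scaffold 1755 (bases 7127 to 8816), scaffold 1673 (26240 to 27328), scaffold 3685 (2088 to 3232), scaffold 2908 (24778 to 26013) and scaffold 1289 (352205 to 353589). Technical replicate 2 bridged the gaps on scaffolds 1755 and 2908, and no library bridged the other 3.

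Whether single libraries showed the join by themselves was then read from their own peak lists. A gap counted as bridged in a library when a region of that library covered it and reached both 12 h regions. Technical replicate 2 bridged 1866 of 4000 filled gaps (46.7%), technical replicate 1 bridged 1649 (41.2%) and replicate 2 bridged 837 (20.9%). Replicate 2 had both the fewest filtered reads and the shortest peak list, technical replicate 2 the most and the longest, and the part of depth in these shares was not tested.

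Joins were seldom repeated. Both biological replicates bridged 533 filled gaps (13.3%, 95% Wilson interval 12.3 to 14.4), and all 3 libraries bridged 137 (3.43%). Here a bridge by either technical replicate counts for replicate 1. Between pairs of libraries, the technical replicates both bridged 623 gaps (15.6%). Replicate 2 shared 8.15% with technical replicate 1 and 8.60% with technical replicate 2, but it also bridged the fewest gaps of the 3 libraries (20.9%). The shared counts were not set against the share that each library bridged, and the cause of their difference was not tested. A single library bridged 2177 gaps (54.4%), and 804 (20.1%) were bridged by none, so that they were continuous only in the pooled list. Of those 804 gaps, 346 held a summit of some library. The share bridged in both biological replicates thus was 8.60% without technical replicate 1 and 8.15% without technical replicate 2.

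**Figure D4:**
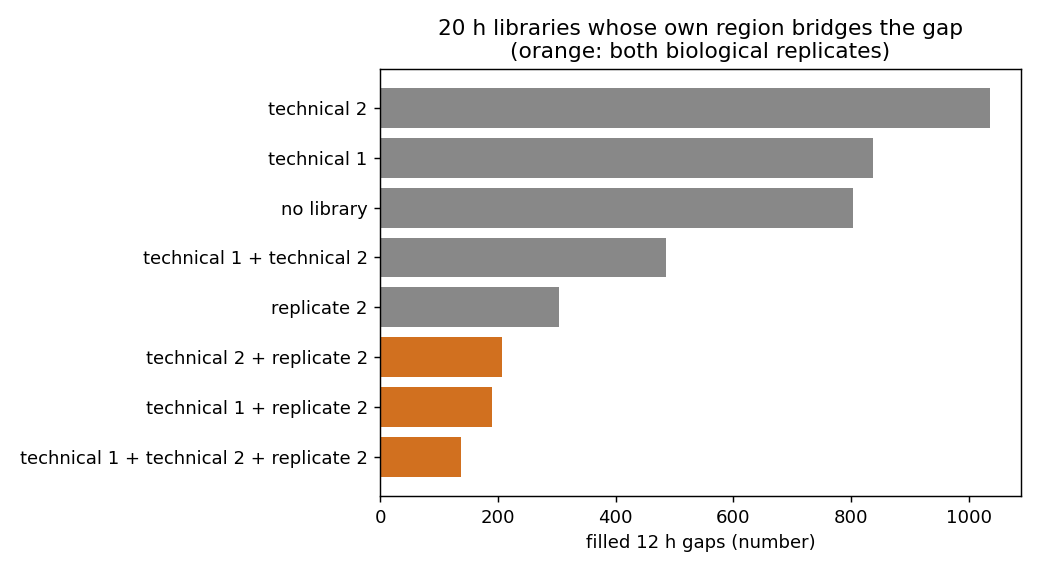
Number of filled 12 h gaps by the set of 20 h libraries whose own region bridged the gap; orange bars mark sets with both biological replicates. Technical replicate 2 alone accounted for 1036 gaps and technical replicate 1 alone for 837, against 137 for all 3 libraries.

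Narrow gaps were bridged repeatedly more often than wide ones. Of filled gaps under 75 bp, 22.3% were bridged in both biological replicates and 7.75% in no library. From 200 to under 300 bp the shares were 4.34% and 41.1%. At 500 bp and over, 0 of 33 were bridged in both replicates. Repeated bridging thus fell with width, while the share of gaps holding a summit, not compared per base, rose. Of the 148 gaps with a summit in both biological replicates, 33 were also bridged in both.

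Within a bridging region the signal most often peaked on 1 side. In technical replicate 1, the summits lay on a single side of the gap in 903 of 1649 bridged gaps (54.8%), on both sides but not in the gap in 264 (16.0%), and in the gap in 482 (29.2%). The shares were 54.4%, 26.7% and 18.9% in technical replicate 2, and 53.3%, 25.8% and 20.9% in replicate 2. Where the summits kept to a single side, that side was the longer of the 12 h regions in 55.3%, 56.1% and 61.0% of cases.

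Gaps bridged in all 3 libraries belonged to stronger regions. The best peak of their joined region had a median fold enrichment of 4.85 and 4.65 in the technical replicates and 5.57 in replicate 2. For gaps that no library bridged, the medians were 3.22, 3.25 and 2.92. The former gaps were also narrower, with a median of 83 bp against 159 bp. A strong peak and a bridged gap are measured on the same reads, so that this is a description only. The 2.92 of replicate 2 was also its median over all 20 h regions overlapping a single 12 h region.

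Peaks of the separate libraries were found under nearly all joined regions. Replicate 1 or 2 had a peak in all but 5 of the 3910, and both biological replicates had one in 2655, or 67.9% (95% Wilson interval 66.4 to 69.3). Over all 20 h regions this share was 34.4%. All 3 libraries had a peak in 2386 joined regions, 61.0%, against 20.6% over all 20 h regions. When a peak had to cover 50% of the joined region, 20.2% had it in both. A peak of replicate 1 alone was found in 1232 joined regions and of replicate 2 alone in 18. These peaks were called at a p threshold of 0.05, without correction. Of joined regions with a peak in replicate 2, 54.7% had a q below 0.05, against 81.5% and 83.1% in technical replicates 1 and 2.

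The background holds many short regions, and joined regions were not better supported than single-overlap regions of their length. When 20 h regions overlapping a single 12 h region were weighted to the lengths of the joined regions, 72.3% had a peak in both biological replicates, above the 67.9% of joined regions. Those overlapping no 12 h region had 29.8% at the same lengths. By library, the joined and single-overlap regions had 91.3% and 91.9% in technical replicate 1, 95.3% and 96.9% in technical replicate 2, and 68.4% and 72.7% in replicate 2. Joined regions thus lay slightly below single-overlap regions in each library and far above regions without a 12 h counterpart in replicate 2 alone, where the latter had 30.2%.

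Support within the joined regions followed their length. Of 505 regions from 200 to under 400 bp, 41.6% had a peak in both biological replicates, and of 754 regions of 1000 bp and over, 86.9%. The matching shares for single-overlap regions were 41.9% and 88.2%. Between these lengths joined regions lay lower, at 57.1% (Wilson interval 53.9 to 60.2) against 62.1% (61.6 to 62.7) from 400 to under 600 bp. From 600 to under 800 bp they stood at 71.1% (68.2 to 73.9) against 75.3% (74.5 to 76.2). From 800 to under 1000 bp the shares were 78.7% (75.6 to 81.6) and 82.2% (80.9 to 83.3). The intervals count regions of the same 2 biological replicates, so they do not measure spread between replicates, and no difference was tested. Among the 89 joined regions of 3 or more 12 h regions, 70 had a peak in both replicates.

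**Figure D5:**
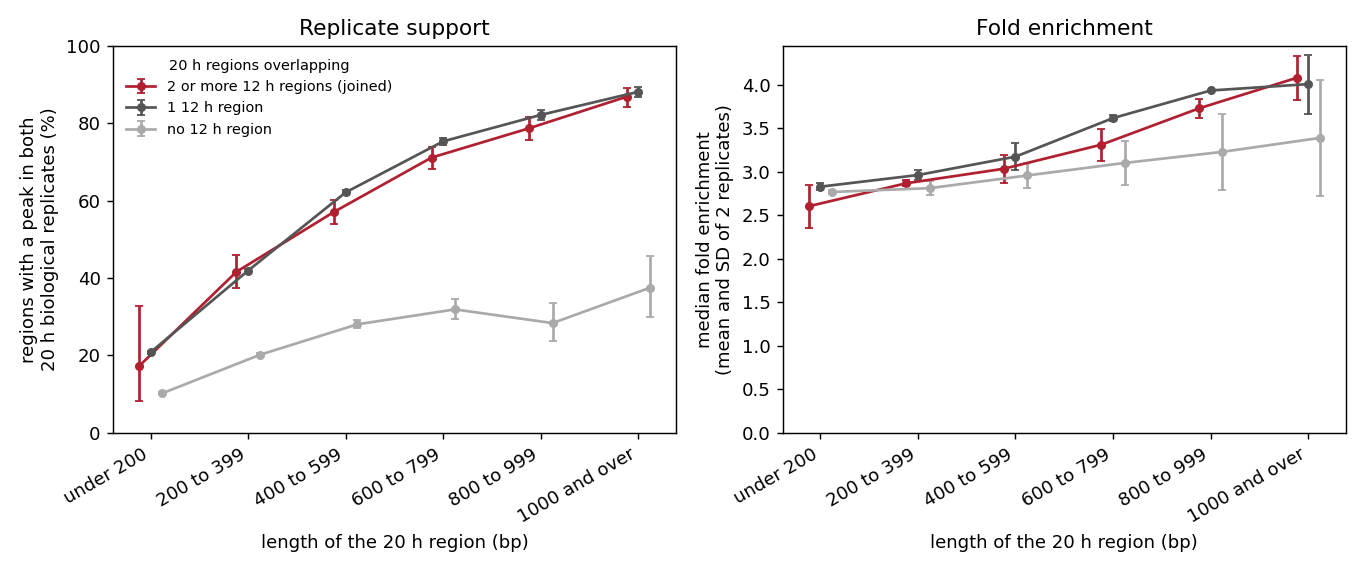
Left, share in percent of 20 h regions with a peak in both biological replicates, by length in bp, for joined regions (red), regions overlapping 1 12 h region (dark grey) and none (pale grey), with 95% Wilson intervals. Right, median fold enrichment as the mean and SD of 2 biological replicates; on the left, red lies below dark grey in every class, at 71.1% and 75.3% from 600 to under 800 bp and 86.9% and 88.2% in the longest class.

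The fold enrichment of joined regions was moderate. Technical replicate 1 had a median of 3.57 at the best peak, technical replicate 2 of 3.43 and replicate 2 of 3.31. The mean of the replicate medians was 3.39 ± 0.107 (SD, n = 2), against 2.99 ± 0.0957 for single-overlap regions of all lengths. At like length the order was the opposite in 5 of 6 length classes: joined and single-overlap regions had 2.60 and 2.83 under 200 bp, 2.87 and 2.96 from there to under 400 bp, 3.04 and 3.18 to under 600 bp, 3.31 and 3.62 to under 800 bp, and 3.73 and 3.94 to under 1000 bp. At 1000 bp and over, joined regions had 4.08 ± 0.256 and single-overlap regions 4.01 ± 0.340, a difference smaller than either SD. The difference was also smaller than either SD from 400 to under 600 bp, where the SDs were 0.161 and 0.153. Under 200 bp it was smaller than the SD of the 35 joined regions, 0.244. With 2 biological replicates no exact test of such a difference could reach significance. In replicate 2 the median was the same value, 2.9221, for joined regions from 400 to under 600 bp and for single-overlap regions of all lengths. Its fold enrichments thus took repeated values, which limits how finely such medians can be compared.

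Single joined regions varied between replicates. Over the 2655 with a peak in both, the median SD of the fold enrichment was 0.667, and replicate 2 was the higher in 45.4%. Across joined regions, which are not independent replicates, fold enrichments of the technical replicates had a Spearman correlation of 0.48. Those of replicate 2 with technical replicates 1 and 2 had 0.38 and 0.40.

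Joined regions were a small part of the strongest regions at 20 h, but a larger one than of all 20 h regions. When 20 h regions were ordered by their mean place in the 3 libraries (by −log10 p), 6 of the first 100 and 723 of the first 10000 (7.23%) were joined, against 1.51% of all 20 h regions. Joined regions were also far longer than the rest, and these shares were not compared at equal length. A mean fold enrichment of 10 or more was reached by 9 joined regions, each with a peak in both biological replicates. The 5 best ranked joined regions described next were picked after their values were seen.

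Second among all 20 h regions was that on scaffold 368, bases 383499 to 384911, with fold enrichments of 17.2 and 15.7 in the technical replicates and 19.2 in replicate 2. It took in 12 h regions of 576, 454 and 172 bp. In all 3 libraries the highest summit lay over the first of these, at 383686, 383729 and 383700. All 3 bridged the first gap, of 101 bp, whose last base held a summit of replicate 2, and none bridged the other, of 210 bp, so that the main centre was repeated but the far join was not.

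On scaffold 1453, bases 144982 to 145548, a pair of centres was repeated in all 3 libraries without a join. Summits lay at 145102, 145108 and 145112 over the left 12 h region and at 145433, 145431 and 145439 over the right one in technical replicates 1 and 2 and replicate 2. No library bridged the 100 bp between the 12 h regions, and each split the stretch into 2 regions. Only the pooled list joined it. The best library peaks had a mean fold enrichment of 9.44 ± 0.338 (SD, n = 2), but they lay over different 12 h regions. In technical replicate 1 the right summit was the higher, at 9.46 against 6.34. The left one was the higher in technical replicate 2, at 8.95 against 5.15, and in replicate 2, at 9.68 against 4.08.

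Scaffold 447, bases 307690 to 309072, was alike, with summits at 307970, 308008 and 307996 and again at 308602, 308603 and 308596. Replicate 2 alone bridged its gap of 113 bp. On scaffold 505, bases 309798 to 311142, each library had 4 summits, which lay 259 to 317 bp apart. All of them fell over 12 h regions, none in the gap of 77 bp, which technical replicate 2 and replicate 2 bridged. The longest of the 5, on scaffold 790, bases 62380 to 65022, measured 2643 bp and began at the first base of its left 12 h region.

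Long joined regions often held several summits. In those of 600 bp and over, neighbouring summits of a library lay 361, 366 and 356 bp apart as medians in technical replicates 1 and 2 and replicate 2. In single-overlap regions of 600 bp and over, of which a smaller share reached 1000 bp, the medians were 341, 323 and 325 bp. The joined regions held 1.83, 2.00 and 1.3 summits each as a mean, against 1.61, 1.77 and 1.18. These values were not compared at equal length.

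The most compound joined region, on scaffold 761, bases 50695 to 51791, crossed 4 of the 12 h regions, of 173 to 329 bp, with gaps of 60, 203 and 152 bp. Technical replicate 2 bridged the first gap, technical replicate 1 the second, and no library the third. Its fold enrichment was low, at 2.66, 2.46 and 3.18 by library. The 7 longest of those with 3 regions measured 1867 to 2247 bp. Among them, scaffold 996 (bases 205398 to 207552) had the highest mean fold enrichment, at 5.80 ± 0.481, and scaffold 46 (299052 to 301074) had the least alike replicates, at 4.93 in replicate 1 and 2.19 in replicate 2. The others lay on scaffold 1697 (7439 to 9685), scaffold 1073 (182149 to 184249), scaffold 403 (38136 to 40056), scaffold 5614 (3860 to 5759) and scaffold 696 (38528 to 40394). None of the gaps in these 7 held a summit of replicate 2.

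Of all 89 joined regions with 3 or more 12 h regions, 45 had every gap bridged by the same library, most often technical replicate 2 with 24. In 5 of them every gap was bridged in both biological replicates.

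Gene neighbourhoods were known for the few joined regions that overlapped a *cis*-regulatory element whose reporter activity had been measured in earlier work that the study drew on. Of 522 regions at 20 h that overlapped such an element, 10 were joined (1.92%), close to the 1.51% of all 20 h regions. They lay near 7 genes. No gap among them held a summit in both biological replicates, so that the rule for naming regions took none, and the following were named after their values were seen. All 10 had a peak in both biological replicates and 9 in all 3 libraries.

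The region near *Shr2*, a gene for an orphan nuclear receptor, lay on scaffold 2330, bases 7875 to 9292, and took in 3 of the 12 h regions, the shortest of 273 bp. It was 1 of the 5 regions of its kind with every gap bridged in both biological replicates. Summits repeated at 8018, 8000 and 8010 over the first 12 h region, at 8529, 8535 and 8539 over the second, and at 9144, 9122 and 9121 over the third. The gaps of 68 and 107 bp held none. Its fold enrichments were 7.04, 5.83 and 9.12 in technical replicates 1 and 2 and replicate 2, the highest of the 10.

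Near *Dlx*, a homeodomain transcription factor gene, the region on scaffold 119, bases 807502 to 808697, had fold enrichments of 6.02, 4.28 and 8.34. Its gap of 67 bp was bridged by technical replicate 1 alone. The main summits lay at 808248, 808250 and 808193, over the right 12 h region. Near *Sip1*, a zinc finger homeodomain gene, the region on scaffold 5, bases 899010 to 900208, had the widest gap of the 10, at 292 bp. Replicate 2 alone had a summit in it, at 899628 with a fold enrichment of 2.96, and alone bridged it. The summits on its sides were found in all 3 libraries.

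Near *Dach*, which encodes a nuclear cofactor of the Dachshund family, scaffold 1640 held 3 joined regions (bases 161203 to 161636, 193659 to 194547 and 201994 to 202638). Their mean fold enrichments were 2.32 to 3.32. That at 193659 shared only 4 bp with its left 12 h region, and technical replicate 2 alone had summits in the gaps of the latter pair. The regions near *Elk*, an ETS family gene, on scaffold 630 (447842 to 448549), and *GataC*, which encodes a zinc finger transcription factor, on scaffold 704 (547090 to 547853), had gaps of 170 and 99 bp, each bridged by a single technical replicate. A pair of joined regions on scaffold 153 (317813 to 318897 and 328729 to 329340) lay near *Z188*, with gaps of 96 and 59 bp and mean fold enrichments of 3.44 ± 0.0292 and 3.27 ± 0.0604. The narrower gap was bridged in both biological replicates.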

How the data were processed

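ATAC-seq libraries of whole *S. purpuratus* embryos were mapped by the authors to genome version 3.1 with bowtie2 in the ENCODE pipeline (version 1.7.0), and MACS2 called peaks with its p threshold set to 0.05. The authors deposited region bounds from pooled libraries for each stage, with overlapping peaks merged, and for each 20 h library a peak list with fold enrichment (a ratio to the local background), −log10 p and −log10 q values and summits. Each library list was limited to 300000 peaks, and the longest reached it. By their labels, the pooled lists of both stages had the same limit before overlapping peaks were merged. No read counts per region were at hand, so no value has a counting interval from reads. The study's quality reports give the depth and the duplicate and mitochondrial shares of each library, used here only to order the 20 h libraries.

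Overlaps of 1 bp or more, gaps between neighbouring 12 h regions, summits and bridging were computed in Python 3.11.15 with numpy 2.4.6 and pandas 2.3.3; intervals are 95% Wilson intervals (scipy 1.17.1) and treat regions as independent. Library peaks that overlapped were merged; the fold enrichment of a region is that of its best peak by −log10 p, with technical replicates averaged first. Shares in unfilled gaps were weighted to the filled gaps in width classes of 20 bp, and regions to the joined regions in length classes of 50 bp. Functions were tested on simulated data. Positions are 1-based.

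The members, lists and naming rules were chosen with earlier results of these data known. Named were the 8 joined regions with the most 12 h regions (ties by length), the 8 best by mean rank of −log10 p among those with a gap summit in all 3 libraries, the 5 widest filled gaps with a summit in both biological replicates, the 5 widest with none, joined regions with a gap summit in both replicates that overlap a tested element, and 2 regions on each side of the rule. Bounds of the tested elements were taken from the study's supplement and none of their activities was used. Alternatives were other overlap limits, merging of 12 h regions, stricter peaks, equal list sizes, shortened or wider gaps and leaving out each 20 h library. No genome sequence of version 3.1 was used, so no sequences are shown.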

Additional observations from a re-analysis of the deposited data

How the results depend on the processing

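The number of joined regions, 3910, fell to 2039 when each 12 h region had to be covered by 50%, and to 2350 and 1198 when 12 h regions within 100 and 150 bp were merged first, since the narrow gaps then vanish. Other overlap limits, peak limits and support in both replicates left 2655 to 3773, and merging within 50 bp changed nothing, as no gap was that narrow. The shares of filled gaps with a summit of some library, with a summit in both replicates and bridged in both, 36.3%, 3.70% and 13.3%, were 23.3%, 1.43% and 10.0% when only peaks with a −log10 p of 3 or more were kept, and 26.7%, 2.48% and 11.9% with an equal number of best peaks from each library. Gaps of at least 100 bp gave summit shares of 48.4% and 5.73%, and gaps shortened by 25 bp at each end gave 25.1% and 2.63%. The share of joined regions with a peak in both replicates, 67.9%, was 47.2% with those stricter peaks, 63.02% with the equal number and 20.2% when a peak had to cover 50% of the region. The fold enrichment, 3.39, was 3.72 with the stricter peaks and 3.17 as a mean over all peaks of a region. Without each library in turn, the summit share was 22.3 to 30.6%, the summit share in both replicates 2.00 to 2.53%, the bridged share 8.15 to 8.60%, the supported share 63.2 to 65.8% and the fold enrichment 3.37 to 3.47; fewer libraries give fewer calls by construction. Shares in both replicates have no value without replicate 2. Leaving out technical replicate 1 lowered the summit shares most, to 22.3% and 2.00%. What lay behind the remaining shifts was not examined; the cause was not tested. No paired analysis was possible because 12 h bounds come from 1 pooled list and no test was run. Batch, depth and stage cannot be told apart. A gap in the 12 h list shows only that no peak there passed both the p threshold and the limit of 300000 peaks.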
